A study of Mus musculus with 36 samples.

Results

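The genes followed here were 10 epithelial genes of the mesenchymal-to-epithelial transition (MET), the switch that fibroblasts pass through on the way to induced pluripotency: Cdh1, Cdh3, Epcam, Ocln, Crb3, Esrp1, Esrp2, Grhl2, Rab25 and St14. They were taken by symbol with no filter on expression, but the list was chosen with earlier results of these data known. All 10 of 10 were found among the 21442 genes of the count table. Poly(A) RNA was sequenced from 36 mouse libraries, 3 in each of 12 groups, made up of 6 stages and 2 genotypes. The question put to the data was how these genes moved from mouse embryonic fibroblasts (MEFs) through reprogramming to pluripotent cells, and whether loss of Zfp266, a KRAB zinc finger gene, altered that course.

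All reprogramming cells came from Cas9 TNG MKOS MEFs of 129 background, which carry an EF1α-driven Cas9 at Rosa26, a doxycycline-inducible cassette of c-Myc, Klf4, Oct4 and Sox2 linked to mOrange, and GFP with puromycin resistance at Nanog, and which were obtained from chimeric E12.5 embryos. WT cells received a non-targeting sgRNA and KO cells a Zfp266 sgRNA by lentivirus, so that KO cells of these stages were a population of edited cells and not a clone. MEFs of both genotypes were harvested 96 h after transduction without sorting and without doxycycline. Day 3, day 5 and day 7 cells (D3, D5, D7) were cultured among unmodified 129 MEFs with 300 ng/ml doxycycline and vitamin C and sorted as mOrange+ cells, so their comparison with MEFs also compared sorted with unsorted cells. Induced pluripotent stem cells (iPSCs) were 3 WT and 3 KO clones grown from single cells under puromycin without doxycycline. Embryonic stem cells (ESCs) gave 3 KO and 3 control libraries, the KO cells being clones made from the line Clone J with a BFP-marked guide plasmid. The methods do not state whether the KO libraries were 3 separate clones, or that the control libraries were Clone J. Nothing in the labels places the MEF, D3, D5 and D7 replicates in separate embryos or experiments, and p-values therefore measured only the spread between these samples, which may be technical.

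Epithelial cells are held together by cadherin junctions and sealed by tight junctions, and they keep an apical and a basal side. Fibroblasts lack these structures and express mesenchymal genes, among them the SNAI, ZEB and TWIST repressors that shut epithelial promoters by binding E-box sequences. Reprogramming factors reverse this state early, and mouse pluripotent cells grow as compact E-cadherin-positive colonies, so an epithelial programme is both a step of reprogramming and a feature of its end point.

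The genes lay on 7 chromosomes of GRCm38. Cdh3 (chr8:106510891-106557297) and Cdh1 (chr8:106603351-106670246) were neighbours on the plus strand, 46054 bases apart, and Esrp2 (chr8:106130319-106136974, minus strand) lay 373917 bases before Cdh3. Exons of opposite-strand genes overlapped 338 exon bases of Esrp2 (7.79%, Nfatc3 and 1810019D21Rik), 127 of Esrp1, 169 of Grhl2 and 14 of Crb3. Whether counting used the strand is not given in the sources used here, so reads in these bases cannot be assigned with certainty. RefSeq promoter sequences (GRCm38.p6) were matched for 4 of the 10 genes, Epcam, Crb3, Rab25 and Ocln, over 6 transcription starts. They are shown because SNAI and ZEB repressors bind the E-box CACCTG, which reads CAGGTG on the other strand. The stretches cover up to 250 bases upstream of the start, 5′ to 3′ on the gene's strand, with E-box letters in capitals: Epcam from chr17:87635729-87635978 (plus strand), Crb3 from chr17:57061951-57062165 (plus strand, ended inside an annotated exon), Rab25 from chr3:88548280-88548529 (minus strand) and Ocln from chr13:100552719-100552968 (minus strand).
Epcam: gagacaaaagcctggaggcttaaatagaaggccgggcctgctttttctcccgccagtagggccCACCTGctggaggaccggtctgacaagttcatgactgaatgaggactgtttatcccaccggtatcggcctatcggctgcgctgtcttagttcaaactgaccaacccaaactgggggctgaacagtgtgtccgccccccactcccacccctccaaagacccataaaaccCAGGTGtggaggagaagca
Crb3: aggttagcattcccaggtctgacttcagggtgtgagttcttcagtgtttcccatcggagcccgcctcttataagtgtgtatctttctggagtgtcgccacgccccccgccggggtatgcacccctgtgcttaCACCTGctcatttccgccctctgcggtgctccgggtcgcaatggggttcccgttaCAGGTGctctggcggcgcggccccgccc
Rab25: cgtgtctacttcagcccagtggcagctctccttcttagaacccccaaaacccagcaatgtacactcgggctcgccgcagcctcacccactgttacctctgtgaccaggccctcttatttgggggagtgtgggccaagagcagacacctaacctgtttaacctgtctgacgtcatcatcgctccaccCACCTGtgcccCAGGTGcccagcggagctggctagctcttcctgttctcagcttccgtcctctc
Ocln: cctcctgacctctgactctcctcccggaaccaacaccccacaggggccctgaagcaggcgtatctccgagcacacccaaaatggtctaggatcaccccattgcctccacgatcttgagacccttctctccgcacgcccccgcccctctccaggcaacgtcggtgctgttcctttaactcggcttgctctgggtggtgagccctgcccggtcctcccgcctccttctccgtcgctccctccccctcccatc
Within 250 bases upstream the E-box occurred 2 times in Epcam, 3 times in Crb3 (the last 1 beyond the stretch shown), 2 times in Rab25 and 0 times upstream of the distal Ocln start, while 2 copies lay upstream of the second, proximal Ocln start. Of the 32851 RefSeq promoters 17.2% held at least 1 E-box in the same window. The Rab25 window also held 1 copy of AACNGGTT or its reverse complement AACCNGTT, a motif of Grainyhead-like factors such as GRHL2, which was present in 1.79% of all promoters. A match gave letters only, and binding was not measured here.

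Library totals ran from 19224103 to 39610939 counts. Values below are normalised read counts, that is counts divided by the library's median-ratio size factor, and 3 counts corresponded to between 2.31 and 5.22 normalised counts per library. Intervals and limits from counts cover counting error only. A gene was called changed when DESeq2's Wald test gave a Benjamini-Hochberg FDR below 0.05 and a log2 fold change beyond 1 in either direction. Zfp266 itself was not lower in KO cells of the early stages: its group means ran from 1422 to 2949 normalised counts in WT and from 1537 to 3200 in KO, higher in KO from MEF to D7 and lower in KO iPSCs and ESCs, so that this count does not check the genotype, since small insertions and deletions need not remove a transcript. The 7 fibroblast marker genes summed to between 400065 and 417252 normalised counts in WT MEFs and to between 30.2 and 66.8 in WT iPSCs, and the 7 pluripotency markers to between 57.6 and 71.3 and between 105055 and 122165. Several libraries stood apart for the epithelial genes. Replicate 2 was the lowest WT iPSC library for 9 of the 10 genes, replicate 3 was the highest KO iPSC library for 10 of 10, and replicate 1 was the lowest KO ESC library for 9 of 10. In KO MEFs replicate 3 was the lowest library for 7 of 10 and the highest for 4, with ties at 0 reads included in both. Among sorted cells, replicate 2 was the lowest WT D3 library for 8 of 10 and replicate 1 the highest for 8, and replicate 3 was the lowest KO D5 library for 8 and replicate 2 the highest for 8. Over all genes, KO MEF replicate 3 differed most from the others of its group, with a chi-square per gene of 99.2 and 102.7. WT D3 replicate 2 and WT D7 replicate 1 came next among MEF and sorted cells, with 38.0 to 47.6 and 42.3 to 44.0. The iPSC clones of a genotype differed from each other by 27.8 to 45.3. In bulk RNA, fewer epithelial cells and less RNA per cell cannot be told apart.

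From MEF to D3, 8 of the 10 genes rose and 1 fell in WT cells, against 19.5% and 25.4% of the 21436 genes tested. The median log2 fold change over the 10 genes was 4.27, or 3.41 with Grhl2, which had no count in WT MEFs, set to its lower bound, whereas the median over all genes tested was -0.01. The same step in KO cells gave 8 genes higher and 1 lower (background 20% and 26%), with a median of 3.64. The rise continued from D3 to D5, where 8 of 10 were called higher (background 4.94% higher and 1.84% lower), and then slowed, with 2 of 10 called higher from D5 to D7 in WT (background 4.74% higher and 1.07% lower) and 3 higher and 1 lower in KO (background 8.84% and 5.34%). From D7 to iPSC 2 of 10 genes rose and 4 fell in WT, counts not far from the background of 20% and 25%. None was called between WT iPSCs and ESCs by DESeq2 or edgeR (background 0.275% called), where 0 of 10 had an unadjusted p below 0.05.

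**Figure D1:**
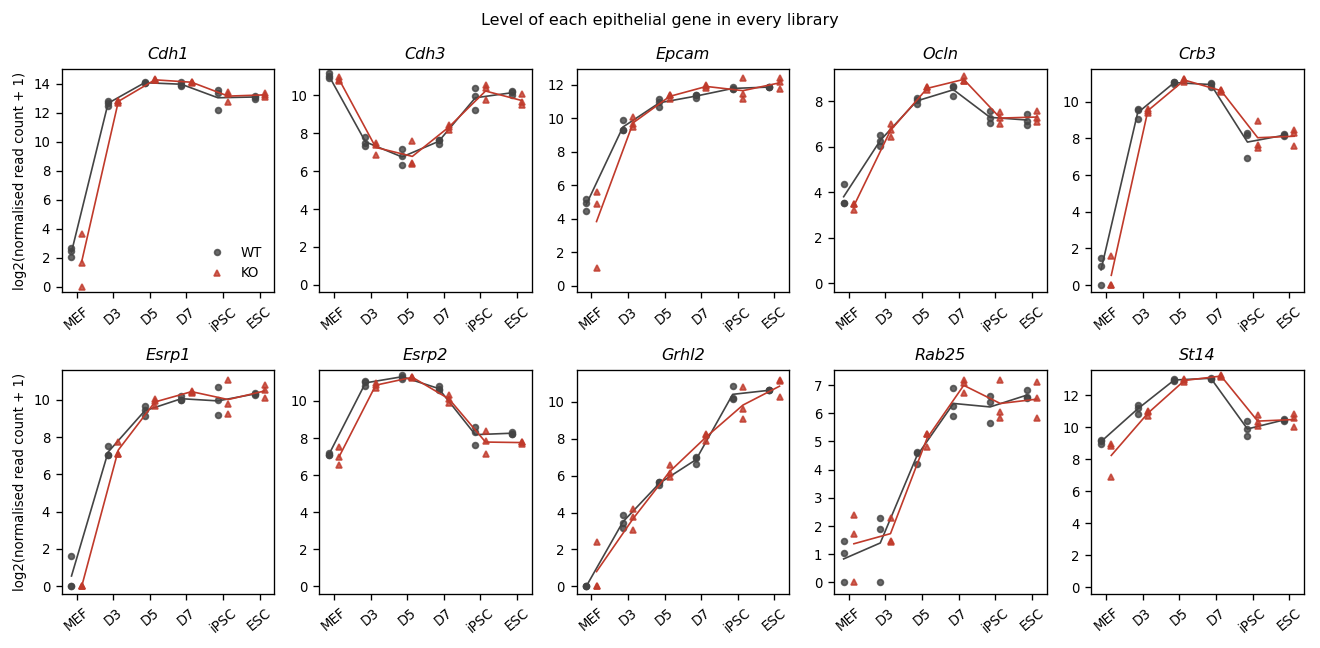
Normalised read count of each of the 10 genes on a log2(count + 1) scale against stage, with circles for the 3 WT and triangles for the 3 KO libraries of each group and lines through the means of the log2 values. All genes but Cdh3 were far lower in MEFs than at D5, Cdh3 followed a V shape, and the 2 genotypes stayed close at most stages.

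Among the adhesion genes, Cdh1, which encodes E-cadherin, the core of the epithelial adherens junction, was close to absent from MEFs. Its WT MEF libraries held 5.22, 4.54 and 3.18 normalised counts, 9 reads in all. At D3 the WT libraries held 7107, 5744 and 6709 normalised counts, and at D5 they held 18223, 17047 and 16899. The D3 to MEF ratio in WT was 1582 (95% interval of the counts 833 to 3460.3). No MEF library came near any later library, and D5 lay wholly above D3 (log2 fold change 1.42 ± 0.21 SE, DESeq2 FDR 1.9e-09).

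Cdh1 then passed its pluripotent level. At D7 the WT libraries held 17870, 14927 and 15783 normalised counts, WT iPSCs held 12349, 4595 and 10600, and WT ESCs held 8098, 8867 and 9368. The D5 and D7 libraries overlapped, as did the iPSC and ESC libraries, and every D5 and D7 library lay above every iPSC and ESC library. The D5 mean was 198% of the WT ESC mean. The fall from D7 to iPSC was -0.82 ± 0.21 on the log2 scale (DESeq2 FDR 0.000254), below the fold threshold.

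Cdh3, which encodes P-cadherin, ran the other way. WT MEF libraries held 1937, 2099 and 2293 normalised counts of Cdh3, D3 libraries 222, 161 and 180, and D5 libraries 141, 109 and 79.1. D7 libraries held 199, 198 and 173, and iPSC libraries 1364, 605 and 1001. MEFs were the highest WT stage for this gene alone among the 10, and the ESC mean of 1132 ± 87.1 (SD, n = 3) was 53.7% of the MEF mean. The MEF to D3 fall was -3.49 ± 0.27 and the D7 to iPSC rise 2.38 ± 0.27 on the log2 scale (DESeq2 FDR 1.86e-38 and 1.87e-18), while D3 and D7 overlapped.

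Per kilobase of merged exon, the cadherin order was reversed for Cdh1 between MEF and D3. In WT MEFs the mean level per kb was 0.943 for Cdh1, 481 for Cdh3 and 622 for Cdh2, the mesenchymal N-cadherin, and at D3 it was 1425 for Cdh1, 42.8 for Cdh3 and 248 for Cdh2. At D7 Cdh2 lay above Cdh3 in WT cells, at 73.4 against 43.3 per kb, whereas the order was the reverse in KO cells, at 36.7 against 73.5. The D7 change of Cdh2 between genotypes was -1.0 on the log2 scale (DESeq2 FDR 8.75e-06).

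**Figure D2:**
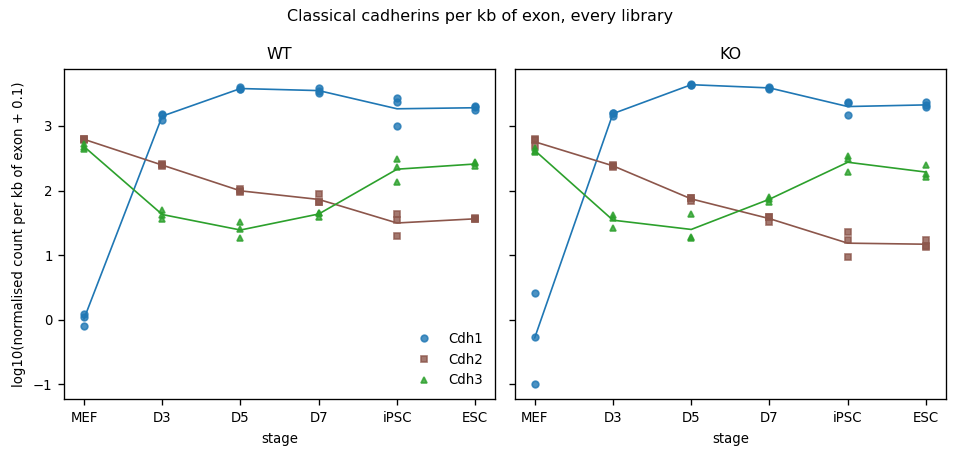
Level of Cdh1, Cdh2 and Cdh3 per kb of merged exon, as log10 of the normalised count per kb plus 0.1, against stage for WT (left) and KO (right), 1 point per library and lines through the means of the log10 values. Cdh1 crosses the other cadherins between MEF and D3, and Cdh3 crosses Cdh2 after D7 in WT cells and before D7 in KO cells.

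Epcam, an adhesion molecule of epithelia and of mouse pluripotent cells, had no overshoot. Its WT means were 28.6 ± 6.96 normalised counts in MEFs, 730.0 ± 183 at D3, 1975 ± 293 at D5, 2592 ± 186 at D7, 3550.2 ± 161 in iPSCs and 3757 ± 59.6 in ESCs (SD, n = 3). Each stage from MEF to iPSC lay wholly above the one before it, and iPSCs and ESCs overlapped. The D3 and D5 steps passed the test at 4.66 and 1.44 on the log2 scale (DESeq2 FDR 2.74e-40 and 1.74e-05), and the later steps did not.

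Both tight junction and polarity genes were above their ESC level at D5 and D7. Crb3, a small apical membrane protein that recruits the Crumbs polarity complex, had 1.74, 0 and 1.06 normalised counts in the WT MEF libraries, 2 reads in all. It then rose to 780.3, 521 and 740.4 at D3 and to 2152, 2126 and 2026 at D5. WT iPSCs held 307, 121 and 292 and WT ESCs 285, 276 and 298. D5 and D7 libraries overlapped and stood far above both pluripotent stages, with the D5 mean at 734% of the ESC mean. The ratio of D3 to MEF was 745 (95% interval of the counts 206 to 6154), and the fall from D7 to iPSC was -3.03 ± 0.29 on the log2 scale (DESeq2 FDR 8.24e-25).

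Ocln, which encodes occludin, a transmembrane protein of tight junctions, had WT means of 13.6 ± 5.29 normalised counts in MEFs, 77.5 ± 13.4 at D3, 259 ± 22.8 at D5, 368 ± 60.2 at D7, 158 ± 30.6 in iPSCs and 146 ± 26.9 in ESCs (SD, n = 3). D7 was the top stage and did not overlap D5, and iPSCs and ESCs overlapped each other below both. Its fall from D7 to iPSC was -1.22 ± 0.18 on the log2 scale (DESeq2 FDR 2.49e-11).

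The splicing genes Esrp1 and Esrp2, paralogues that promote epithelial exon choice, parted after D5. Esrp1 had 0, 0 and 2.12 normalised counts in WT MEFs and reached 181, 130.0 and 132 at D3, then 805, 704 and 556 at D5 and 1169, 1011 and 1033 at D7. WT iPSCs (1079 ± 547) and ESCs (1274 ± 40.7; SD, n = 3) held about the D7 level, and the D7 and iPSC libraries overlapped. Its D3 to MEF ratio in WT was 161 (95% interval of the counts 44.4 to 1337). In KO MEFs no library had an Esrp1 read, and the D3 level was at least 152-fold higher, taking a floor of 3 counts over the group.

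Esrp2 was already present in WT MEFs, at 144, 133 and 134 normalised counts. It rose to 2105, 1759 and 2199 at D3, and the libraries held 2537, 2332 and 2749 at D5 and 1529, 1592 and 1772 at D7. WT iPSC libraries held 319, 194 and 392 and ESC libraries 301, 301 and 314. Esrp2 reached 79.6% of its top stage by D3, the highest such share of the 10 genes, and every reprogramming library lay above every pluripotent library. The changes from D5 to D7 and from D7 to iPSC were -0.64 ± 0.21 and -2.44 ± 0.21 on the log2 scale (DESeq2 FDR 0.0134 and 2e-29).

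Grhl2, a Grainyhead-like transcription factor that activates Cdh1 and other junction genes in epithelia, was the furthest below its ESC level at D7. No WT MEF library held a read. The WT libraries held 13.8, 8.0 and 9.69 normalised counts at D3, 48.5, 49.5 and 43.7 at D5, and 129.8, 98.7 and 122 at D7. Each stage lay wholly above the one before it, yet the D7 mean was only 7.38% of the ESC mean. WT iPSCs held 1129.6, 1203 and 1854, wholly above D7, and overlapped the ESCs at 1592, 1589 and 1574. The D3 level was at least 7.67-fold above a floor of 3 counts over the MEF group, and the D7 to iPSC rise was 3.58 ± 0.33 on the log2 scale (DESeq2 FDR 6.19e-27). At D5, the highest WT stage for Cdh1, Grhl2 stood at 2.98% of its ESC mean.

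Rab25, a Rab11-family GTPase of apical recycling, was first called higher at D5. WT MEFs held 1.74, 0 and 1.06 normalised counts and D3 cells 2.75, 0 and 3.88, which overlapped and were near the floor of 3 counts. D5 libraries held 23.3, 17.5 and 23.9 and D7 libraries 117, 59.4 and 75.1, and D7, iPSC (76.8 ± 24.9) and ESC (99.2 ± 10.5; SD, n = 3) libraries overlapped. The D5 and D7 steps were 3.27 ± 0.67 and 1.95 ± 0.41 on the log2 scale (DESeq2 FDR 1.92e-05 and 2.83e-05).

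St14 encodes matriptase, a membrane-anchored serine protease of epithelia, and was present in MEFs. Its WT means were 555 ± 41.5 normalised counts in MEFs, 2315 ± 446 at D3, 8024 ± 403 at D5, 8645 ± 228 at D7, 994 ± 328 in iPSCs and 1420.3 ± 73.0 in ESCs (SD, n = 3). The D7 mean was 609% of the ESC mean, and no D5 or D7 library overlapped any other stage. The fall from D7 to iPSC was -3.12 ± 0.28 on the log2 scale (DESeq2 FDR 8.95e-28).

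**Figure D3:**
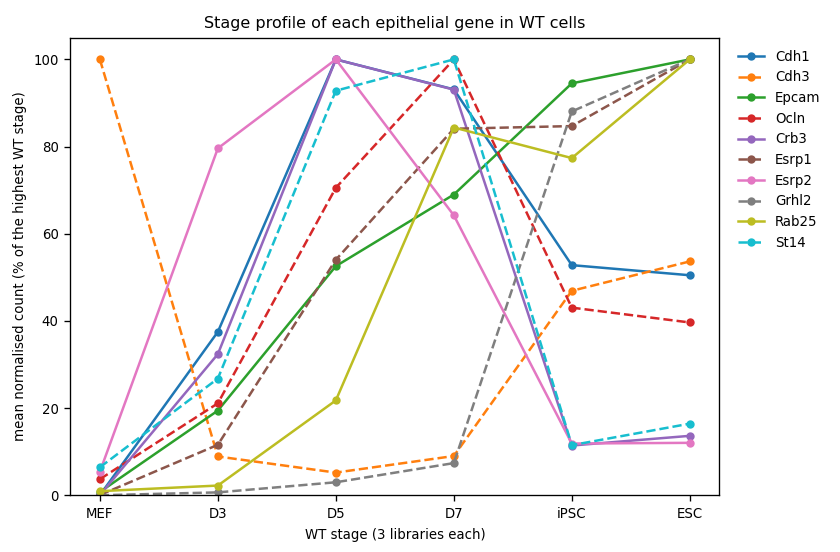
Mean normalised count of each gene in WT cells (3 libraries per stage) as a percentage of its highest WT stage, against stage. Cdh1, Ocln, Crb3, Esrp2 and St14 peak at D5 or D7, Epcam, Esrp1, Grhl2 and Rab25 at ESC, and Cdh3 in MEFs.

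The other epithelial and mesenchymal genes moved with these steps. All 12 mesenchymal counterparts, which include Vim, Fn1 and the SNAI, ZEB, TWIST and Prrx1 regulators, were called lower from MEF to D3 in WT cells, with Snai1 at -4.08, Fn1 (fibronectin) at -5.26 and Prrx1 at -3.15 on the log2 scale. Of 19 further tight junction and polarity genes 11 were higher and 2 lower at that step, led by Prkcz (5.12) and Cldn3 (7.16), claudin 3 being a tight junction strand protein. Of 11 desmosome and keratin genes 7 were higher and 2 lower, with Dsp (desmoplakin) at 6.05 and Dsc2 at 4.88, while the 2 lower genes, named after their values were seen, were Krt18 (-5.06) and Krt19 (-2.40), keratins of simple epithelia. Of 8 epithelial transcription factors 7 were higher and 1 lower, with Grhl1 at 5.01, Ovol1 at 11.42 and Klf5 at -1.43. Of 3 catenins, the cytoplasmic partners of cadherins, 0 were higher and 1, Ctnnb1 at -1.24, was lower. Of the 6 genes of the matriptase protease system 4 were in the table and 1 was higher, Spint2, a matriptase inhibitor, at 2.67. Of 9 trafficking, mucin-like and splicing genes 5 were higher and 2 lower, with Mal2 at 5.24 and Ap1m2 at 6.44. The background for these counts is the 19.5% higher and 25.4% lower given above.

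From D7 to iPSC the lists differed, against a background of 20% higher and 25% lower. Of the desmosome and keratin genes 10 of 11 were called lower in WT cells and 1 higher (Pkp2, 2.26, named after its value was seen), with Dsc2 at -8.30 and Krt8 at -7.99 on the log2 scale. Of the tight junction and polarity genes 9 were lower and 2 higher, with Marveld2 (tricellulin) at -3.52 and F11r at -1.87. Of the mesenchymal counterparts 7 were lower and 2 higher, the latter Zeb1 (1.5) and Fn1 (1.34), named after their values were seen. Of the transcription factors 3 were lower and Klf5, a factor shared by epithelia and pluripotent cells, was higher at 3.66. Of the trafficking, mucin-like and splicing genes 4 were lower and 1 higher, with Mal2 at -6.88, of the protease system Spint2 was lower (-1.13) and Prss8 higher (2.08), and of the catenins Ctnnd1 was lower (-1.23). The sum of the 6 keratinocyte markers moved in the same window. It was between 367 and 418 normalised counts in WT MEFs, between 10465 and 14342 at D5 and between 47.5 and 69.8 in WT iPSCs. The D5 sum was mostly Krt14, at a mean of 11646 against 6.74 in MEFs, and Krt5 and Krt1 rose too. Ivl, Lor and Krt10 had lower means at D5 than in MEFs, at 124 against 252, 7.17 against 83.8 and 30.5 against 42.5. The part of these markers in the epithelial gene levels was not tested. Sums of the trophoblast markers (4 of 5 in the table) stayed between 46.6 and 68.9 in WT iPSCs and between 239 and 297 at D3, those of the 5 primitive endoderm markers between 507 and 915 from D3 to D7, and those of the 4 immune markers between 67.0 and 339.5 over the same days.

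The KO comparison asked whether Zfp266 loss moved the epithelial genes at any stage. In MEFs and at D3 0 of 10 genes were called, by DESeq2 and by edgeR alike, against 0.019% and 0.162% of all genes tested, with 1 gene at each stage at an unadjusted p below 0.05: St14 in MEFs and Ocln at D3. Cdh1, Crb3, Esrp1, Grhl2 and Rab25 were at or near the floor of 3 counts in MEFs of both genotypes, and no fold is given for them there. St14 was 501, 465 and 120 normalised counts in KO MEFs against 508, 586 and 571 in WT, all 3 KO libraries below the WT libraries (-0.62 ± 0.29 on the log2 scale, DESeq2 FDR 0.582; -0.20 without KO replicate 3). Its low library, KO replicate 3, also held 1.06 normalised counts of Epcam against 28.5 and 47.1 in the other KO MEF libraries, no Cdh1 read, a keratinocyte marker sum of 73.1 against 309 and 318, and a fibroblast marker sum of 541679 against 373259 and 375885. The keratinocyte sum differed mostly through Ivl, at 7.42 against 204 and 197. The sum of the 12 mesenchymal counterparts went the other way from the fibroblast sum, at 244738 against 391943 and 394848. Among the fibroblast markers Thy1 was lower in that library, at 11899 against 18412 and 19242. The other fibroblast markers were higher there, with Col3a1 at 194360 against 111085 and 106768. The part of these differences in the St14 value was not tested.

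At D3 Ocln was 126, 85.1 and 107 normalised counts in KO and 91.7, 76.0 and 64.9 in WT, which overlapped (0.45 ± 0.20 on the log2 scale, DESeq2 FDR 0.627). The median log2 fold change of the 10 genes at D3 was 0.11.

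At D5 0 of 10 genes passed both thresholds with either tool (background 1.19%), and 1 of 10, Ocln, passed the FDR alone (background 4.72% higher). Ocln was 391, 391 and 357 normalised counts in KO against 265, 279 and 234 in WT, without overlap (0.55 ± 0.17 on the log2 scale, DESeq2 FDR 0.0278). It missed the FDR threshold with edgeR (0.0714) and in 5 of 6 fits that left out 1 D5 library, all but the fit without WT replicate 2. All 3 KO libraries lay above all 3 WT libraries for 7 of 10 genes, against 16.1% of all genes: Cdh1, Epcam, Ocln, Crb3, Esrp1, Grhl2 and Rab25. The median over the 10 genes was 0.29, and over all genes tested -0.01. Cdh1 was 19833, 20559.8 and 19410.3 in KO and 18223, 17047 and 16899 in WT, the lowest KO library lying just above the highest WT library (0.20 ± 0.21, DESeq2 FDR 0.713). Epcam was 2702, 2722 and 2266 in KO and 2249, 2009 and 1667 in WT, which were close at the edge but did not overlap (0.38 ± 0.29, DESeq2 FDR 0.552). Marker sums moved at D5 too, those of the pluripotency markers being 1564 to 1840.3 in WT and 3273 to 4938 in KO. Utf1 alone of these markers had a lower mean in KO, at 80.1, 75.5 and 120 normalised counts against 130, 143 and 158 in WT. Sums of the keratinocyte markers were 10465 to 14342 in WT and 9852 to 10338 in KO, mostly Krt14 at a mean of 11646 and 9743. The part of these markers in the D5 values was not tested.

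The fit over all 36 libraries gives each gene a single dispersion, the widely spread iPSC clones included. With the 6 D5 libraries fitted alone, 4 of 10 genes passed the FDR, all higher in KO (background 8.6% higher): Cdh1 (0.21 ± 0.06), Epcam (0.38 ± 0.10), Ocln (0.56 ± 0.13) and Esrp1 (0.47 ± 0.13), with DESeq2 FDR values of 0.0027, 0.00224, 0.000343 and 0.00256. None reached a log2 fold change of 1.

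At D7, Grhl2 was the only member past both thresholds, 1 of 10 and higher in KO, against a background of 8.37% called and 3.95% higher. Grhl2 was 232, 297 and 301 normalised counts in KO and 129.8, 98.7 and 122 in WT. Every KO library lay well above every WT library, at 1.24 ± 0.33 on the log2 scale (DESeq2 FDR 0.00121). The KO mean of 277 ± 38.8 was 17.5% of the WT ESC mean and the WT mean 7.38%. Grhl2 stayed past the FDR threshold without any 1 of the 6 libraries.

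At an FDR below 0.05 without a fold threshold, 3 genes were higher and 1 lower at D7 (background 13.3% and 16.1%). Cdh3 was 326, 348 and 292 normalised counts in KO and 199, 198 and 173 in WT (0.76 ± 0.27, DESeq2 FDR 0.0196). Ocln was 562, 472 and 469 in KO and 397, 408 and 298 in WT (0.45 ± 0.17, DESeq2 FDR 0.033). Esrp2 was 953, 1102 and 1289 in KO and 1529, 1592 and 1772 in WT (-0.55 ± 0.21, DESeq2 FDR 0.0333). None of these overlapped between genotypes. Each missed the FDR threshold in some fits that left out 1 D7 library: Cdh3 and Ocln without WT replicate 3, KO replicate 1 or KO replicate 2, and Esrp2 without any 1 library other than KO replicate 3.

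Epcam and Crb3 did not overlap at D7 either but missed the test. Epcam was 4096, 3919 and 3572 normalised counts in KO and 2691, 2708 and 2377 in WT (0.58 ± 0.29, DESeq2 FDR 0.131). Crb3 was 1594, 1450 and 1604 in KO and 2103, 1970 and 1794 in WT (-0.34 ± 0.29, DESeq2 FDR 0.418). In all, KO libraries lay wholly above WT for 6 of 10 genes and wholly below for 2 of 10, against 20.8% and 26.6% of all genes, and the median of the 10 was 0.41 beside -0.04 over all genes tested.

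With the 6 D7 libraries fitted alone, 9 of 10 genes passed the FDR, 7 higher and 2 lower in KO, against 33.3% of all genes (17% higher, 16.3% lower). Epcam gave 0.62 ± 0.08 (DESeq2 FDR 1.54e-14), Esrp1 0.42 ± 0.09 (9.88e-06) and Crb3 -0.30 ± 0.08 (0.00157), whereas Rab25 missed at 0.64 ± 0.27 (0.0505). The difference between Cdh1 levels stayed small, at 0.17 ± 0.07 (0.0374).

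**Figure D4:**
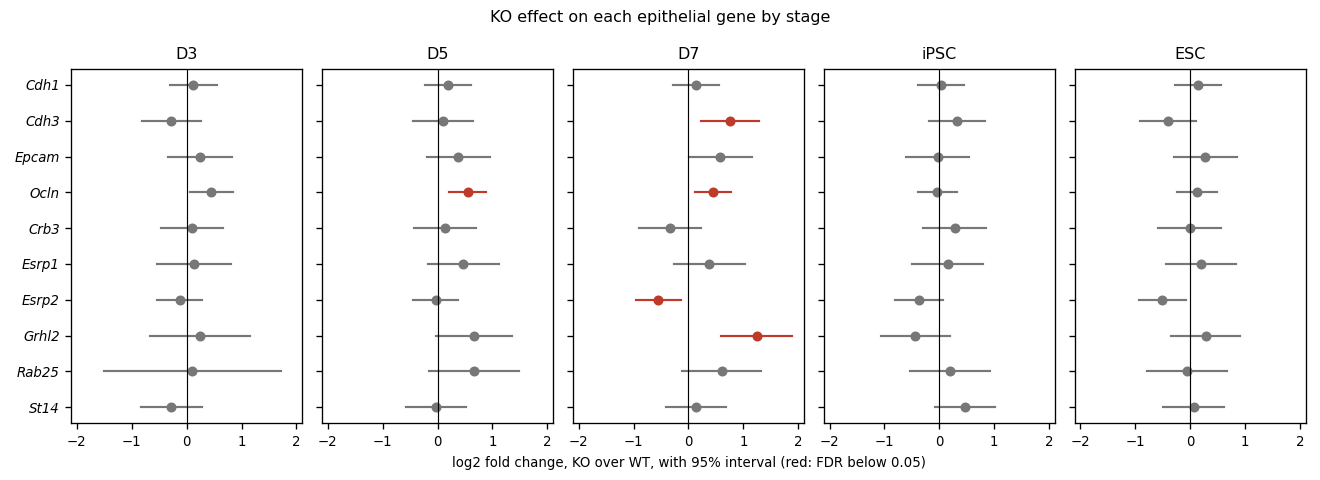
Log2 fold change of KO over WT with its 95% interval for each gene at D3, D5, D7, iPSC and ESC, from the fit over all 36 libraries, with red for an FDR below 0.05. Ocln at D5 and Cdh3, Ocln, Esrp2 and Grhl2 at D7 are red, and no gene is red at D3, iPSC or ESC.

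At D7, 5 of 10 genes in WT and 8 of 10 in KO had means above the WT ESC mean. The 3 that passed it in KO alone were Epcam (102.8% against 69.0%), Esrp1 (109% against 84.1%) and Rab25 (128% against 84.4%). For each of these 3 the D7 and ESC libraries of KO cells overlapped. The count rests on means and was not tested, and the share over all genes was not taken. The D7 and iPSC levels can be set side by side, though the comparisons share the D7 WT libraries. Grhl2 and Cdh3, higher in the KO, had WT iPSC means of 1395 and 989.8 normalised counts, above both D7 means. Epcam, higher in the KO in the fit of D7 alone, had a WT iPSC mean of 3550.2, below the D7 KO mean of 3862. Esrp2, lower in the KO, and Crb3, lower in the fit of D7 alone, had WT iPSC means of 301 and 240, below both D7 means. Ocln was higher in the KO and its WT iPSC mean of 158 lay below both. The same held for St14 and Cdh1, higher in the KO in the fit of D7 alone, whose WT iPSC means of 994 and 9181 lay far below both D7 means (8645 and 9522 for St14, 16193 and 17771 for Cdh1). Esrp1, also higher there, had a WT iPSC mean of 1079 between the D7 means of 1071 in WT and 1390.1 in KO. The genes higher in the KO at D7 therefore lay on both sides of the iPSC level. The pluripotency markers moved at the same time, their 7-gene sum being between 7342 and 11515 in D7 WT and between 30043 and 37968 in D7 KO libraries. Fibroblast marker sums were 24187 to 36905 in WT and 7921 to 22583 in KO, and keratinocyte marker sums 4643 to 10127 and 2710 to 4388, with none of the genes of these 3 lists at 0 in any D7 library. The keratinocyte sums were mostly Krt14, at a mean of 7382 and 3591. Trophoblast marker sums were 164 to 179 in WT and 235 to 353 in KO. Elf5 had a mean of 81.3 and 209.7, whereas Ascl2 went the other way (58.0 and 27.5) and Hand1 (26.1 and 30.4) and Gata3 (7.81 and 9.07) changed little. Immune marker sums were 277 to 339.5 and 463 to 493, almost all of it Cd68, at a mean of 298 and 463. Ptprc (9.14 and 7.89) and Adgre1 (8.90 and 3.51) were low and not higher in KO. The part of any of these in the epithelial gene differences was not tested.

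No gene's KO effect was called different between stages: 0 of 10 for D3 against MEF, D5 against D3, D7 against D5 and iPSC against ESC (background 0.112%, 0.064%, 5.84% and 1.47%), by DESeq2 and by edgeR, with 1, 0, 0 and 0 genes at an unadjusted p below 0.05. With the 12 D5 and D7 libraries fitted alone, 2 of 10 had a lower KO effect at D7 than at D5 (background 7.49% lower), Crb3 by -0.43 ± 0.10 and Esrp2 by -0.47 ± 0.14 on the log2 scale (DESeq2 FDR 0.000699 and 0.00823).

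The other lists gave from 0 to 3 calls each at D7, against a background of 3.95% higher and 4.42% lower. Of the 19 tight junction and polarity genes 2 were lower in the KO, Crb1 (-2.60) and Cldn3 (-1.14). Single genes were higher among desmosome and keratin genes (Krt18, 1.92), epithelial transcription factors (Klf5, 1.37), the protease system (Prss8, a matriptase substrate protease, 1.40) and the trafficking, mucin-like and splicing genes (Rbm47, 1.39). Of the 12 mesenchymal counterparts 3 were lower, Cdh2 (-1.0), Snai2 (-1.61) and Zeb2 (-1.17), the last 2 being E-box repressors, and 0 were higher. No catenin was called.

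In iPSCs 0 of 10 genes were called with either tool (background 4.51%), and 0 had an unadjusted p below 0.05. The clones within a genotype were widely spread, with a median coefficient of variation over the 10 genes of 33.1% in WT and 45.0% in KO. Grhl2 was 791, 533 and 1775 normalised counts in the KO clones and 1129.6, 1203 and 1854 in the WT clones, overlapping widely (-0.43 ± 0.32, DESeq2 FDR 0.399). Without KO replicate 3 the difference was -1.08 and its DESeq2 FDR 0.00109. Esrp2 was 140, 226 and 333 in KO and 319, 194 and 392 in WT (-0.37 ± 0.22, DESeq2 FDR 0.263), and passed the FDR without KO replicate 3 (-0.72, 0.0101) or without WT replicate 2 (-0.61, 0.0443). Crb3 was 178, 201 and 496 in KO and 307, 121 and 292 in WT, and Esrp1 was 871, 601 and 2120.4 in KO and 1005, 573 and 1659 in WT. Vim, which encodes a mesenchymal intermediate filament, was 8524 normalised counts in WT replicate 2, the low epithelial clone, against 2207 and 3692 in the other WT clones, and 1714 in KO replicate 3, the high one, against 5197 and 5912. The sum of the 12 mesenchymal counterparts went the other way in WT replicate 2, at 30507 against 37805 and 36830. In KO replicate 3 the sum was 44469 against 53098 and 51206. The part of Vim or of the list in these values was not tested.

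**Figure D5:**
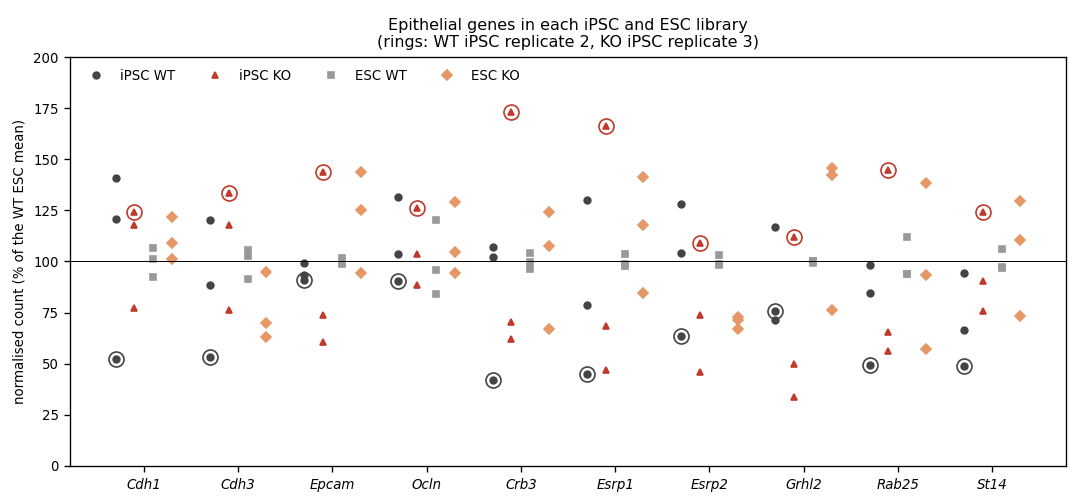
Normalised count of each gene in every iPSC and ESC library as a percentage of the WT ESC mean, with rings around WT iPSC replicate 2 and KO iPSC replicate 3. WT ESC libraries lie close to 100%, the ringed KO clone is the highest of its group for all 10 genes and the ringed WT clone the lowest of its group for 9.

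In ESCs 0 of 10 genes were called with either tool (background 1.21%), with 1 gene at an unadjusted p below 0.05. That gene, Esrp2, was 218, 222 and 205 normalised counts in the KO libraries and 301, 301 and 314 in WT, without overlap (-0.51 ± 0.22, DESeq2 FDR 0.127). With the 6 ESC libraries fitted alone, 2 of 10 passed the FDR, both lower in KO (background 6.89% lower), Esrp2 at -0.52 ± 0.14 and Cdh3 at -0.41 ± 0.13 (DESeq2 FDR 0.00213 and 0.0146). WT ESC libraries spread less than KO ESC libraries: the median coefficient of variation over the 10 genes was 4.46% in WT and 23.5% in KO. Cdh2 was lower in KO iPSCs and in KO ESCs, at -1.02 and -1.30 on the log2 scale (DESeq2 FDR 5.88e-05 and 1.99e-07), while Cdh1 and Cdh3 were not called in either.

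Of the other lists in iPSCs, 6 of 11 desmosome and keratin genes were called higher in the KO (background 3.95% higher and 0.557% lower), with Dsc2 at 1.52, Krt7 at 2.87 and Dsp at 1.21, although the 3 KO clones lay wholly above the WT clones for 2 of the 11, Dsc2 and Dsp. Of the 12 mesenchymal counterparts 2 were lower, Cdh2 and Zeb2 (-1.05), both with overlapping clones. The sum of the 12 went the other way, at 44469 to 53098 normalised counts in the KO clones and 30507 to 37805 in the WT clones. In ESCs that sum was 38995 to 42412 in KO and 30236 to 37397 in WT. These differences in sums were not tested. Primitive endoderm markers were called higher for 3 of 5, with Gata6 at 1.79, and overlapped for all 5. Their sums were 607, 96.4 and 79.8 normalised counts in the 3 KO clones and between 61.2 and 129 in WT, so KO replicate 1 carried most of that signal, and it was not the clone with the high epithelial genes.

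Across the 12 group means, the 10 genes' profiles on the log2 scale were positively correlated in 36 of 45 pairs. Of the other 9 pairs 8 held Cdh3, the lowest being Cdh3 with Esrp2 (Pearson r -0.988), and the last was Esrp2 with Grhl2 (-0.04). Among 21040 genes compared, the profile most like the mean of the 10 over all 12 groups was that of Ap1m2, an adaptor subunit for basolateral sorting in epithelia (r 0.997), followed by 2010008C14Rik, Kdf1, Arhgef16 and Gm10522. These points share libraries and stages, and the values are descriptions.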

How the data were processed

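mRNA-seq data were analysed from 36 mouse libraries (12 groups of 3). Per the labels and the study's methods, the authors checked reads with FastQC, trimmed adapters with cutadapt, aligned to GRCm38.p6 with STAR and counted reads per gene with Rsubread; tool versions, annotation release and strand setting are not given in the sources used here. The deposited counts are whole reads per gene. The deposited normalised counts are signal values that equal the counts divided by DESeq2 median-ratio size factors. A deposited log table was not used, nor were tables of the authors' own fold changes and p-values, except to pair gene identifiers with symbols. No count column lacked a sample.

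Counts were fitted with DESeq2 1.42.0 (R 4.3.3; Wald test, 1 factor of 12 groups, Benjamini-Hochberg FDR, independent filtering, unshrunken fold changes). A gene was called at an FDR below 0.05 and a log2 fold change beyond 1, and interactions at an FDR below 0.05. Alternatives were edgeR 4.0.16, TMM factors, no independent filtering, a minimum of 10 counts in 3 libraries, the compared groups alone, the FDR alone, the fold threshold inside the Wald test, a replicate block and leaving out each library. In simulated D7 KO and WT counts of 21442 genes, recovery was counted at an FDR below 0.05 without the fold threshold. DESeq2 recovered 69 of 100 changes of log2 size 1 and 91 of 100 of size 2, with 12 false calls. Recovery with the fold threshold was not counted.

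The 10 genes and all lists (tight junction and polarity, desmosome and keratin, catenins, epithelial transcription factors, protease system, trafficking, mucin-like and splicing genes, mesenchymal counterparts, and markers of 6 cell types) were chosen with earlier results of these data known. All 10 genes were to be named, and of each other list the 3 called genes with the lowest FDR per comparison. Levels per kb used merged exon lengths. Likeness of profiles used group means of log2(normalised count + 1) over genes with at least 10 normalised counts in a group. The profiles most like that of Cdh1 are not reported here. Totals of 19224103 to 39610939 counts set the precision of low values.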

Additional observations from a re-analysis of the deposited data

How the results depend on the processing

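Over the 20 comparisons, 290 of 304 counts of called genes stayed within 1.5 times the value given and 14 moved, and of 780 fold changes of single genes under an alternative none was called in the opposite direction. With the FDR alone, 1 gene was called for KO against WT at D5, 4 at D7, and 5 for WT D7 against D5. With the fold threshold inside the Wald test, which asks that the fold change exceed the threshold by more than its error, 0 genes were called for KO against WT at D7, 2 for WT D5 against D3, 0 for WT D7 against D5, 5 for KO D5 against D3 and 0 for KO D7 against D5. With the compared groups alone, 2 genes differed in KO effect between D7 and D5. Leaving out 1 library gave 0 to 1 genes for that effect (1 without KO D5 replicate 2), 0 to 1 for KO against WT in iPSCs (1 without KO iPSC replicate 3), 0 to 1 for the KO effect in iPSCs against ESCs (1 without KO iPSC replicate 3) and 0 to 1 for KO ESCs against KO iPSCs (1 without KO iPSC replicate 3 or KO ESC replicate 1); the cause was not tested. It gave 2 to 3 for WT D7 against D5, 6 to 7 for WT iPSCs against D7 and 6 to 8 for KO iPSCs against D7.

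Same-numbered WT and KO libraries deviated together weakly at D3, D5 and D7 (correlations 0.0593 to 0.287) and not in MEFs, with 2, 3 and 3 of 3 pairs best matched to their own number at those stages as a hint from the data, so the numbers were not taken as pairs. A replicate block left the number of genes called as it was, with 1 at D7, and Esrp1 passed the FDR alone with the block at D5 (0.0109) and D7 (0.0222), as did Esrp2 in ESCs (0.0490).

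Under TMM factors the percent-of-ESC values moved by more than 1 SD for 2 of 110 means. Depth limited MEF values: Cdh1, Crb3, Esrp1, Grhl2 and Rab25 were near the floor of 3 counts there, so that KO effects in MEFs could not be measured for them.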

Other observations

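The other epithelial lists rose further between D3 and D5 in WT cells. Of the 19 tight junction and polarity genes 7 were called higher and 0 lower by DESeq2, of the 11 desmosome and keratin genes 7 and 0, of the 9 trafficking, mucin-like and splicing genes 6 and 0, and of the 8 epithelial transcription factors 4 and 0, with Ehf at 2.31, Elf3 at 2.03 and Grhl3 at 1.77 on the log2 scale (background 4.94% higher and 1.84% lower). Of the 4 genes of the matriptase protease system in the table, 3 were higher, Spint1 (2.61) and Spint2 (1.27), inhibitors of matriptase, and Prss8 (2.21), while St14 itself rose by 1.79. Of the 12 mesenchymal counterparts 6 were lower. No catenin was called.

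Between D5 and D7 few of these genes were called in WT cells (background 4.74% higher and 1.07% lower). Krt18 (1.88), Tfap2c (1.22) and Prss8 (1.51) were higher. Among the mesenchymal counterparts Fn1 (1.48) and Snai2 (1.03) were higher at this step and Twist2 (-1.80) lower.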
